A study of Mus musculus with 6 samples.

Results

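The genes described here carry the phosphocreatine and adenylate kinase systems that buffer ATP in muscle. They are 9 genes taken by symbol from the 56691 rows of the count table. The list was chosen with earlier results of these data known. It holds the creatine kinases Ckm, Ckb, Ckmt1 and Ckmt2 and the creatine transporter Slc6a8. The creatine synthesis enzymes Gatm and Gamt and the adenylate kinases Ak1 and Ak4 complete it. All 9 passed the filter on low counts, which left 15429 genes. The libraries were bulk RNA sequencing of primary cardiomyocytes from hearts of neonatal mice. One group of 3 libraries (genotype Control) had received the Ad-cTNT vector, and the other 3 libraries (genotype HMGB2 overexpression) had received Ad-cTNT-HMGB2, so both groups carried an adenovirus of serotype 5 with the cardiac troponin T promoter, which is active in cardiomyocytes. HMGB2 is a DNA-bending chromatin protein, and the comparison asks which transcripts differ when it is added. The strain, exact age, virus dose, collection time and whether replicates came from separate isolations were not stated in the labels, so each p-value reflects variation among these libraries, which may be only technical.

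Creatine kinases move a phosphate group between ATP and creatine. Ckmt2 (the sarcomeric form) and Ckmt1 (the ubiquitous form) encode enzymes of the mitochondrial intermembrane space that make phosphocreatine from newly made ATP, while Ckm (the muscle form) and Ckb (the brain form) encode cytosolic subunits that turn it back into ATP beside the myofilaments and ion pumps. Heart muscle takes up most of its creatine through SLC6A8, and creatine is made from arginine and glycine by GATM and then GAMT, mainly in kidney and liver. Adenylate kinases recover ATP from ADP and release AMP, the signal read by the AMP-activated protein kinase (AMPK). AK1 works in the cytosol and AK4 belongs to the mitochondrial matrix.

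The 4 creatine kinases are related genes, and the stretches below show how well their reads can be told apart. They are the 75 aligned coding bases in which each pair is most alike, read from the GENCODE M21 transcripts of GRCm38, with capitals at the bases that differ between both members of a pair. Positions are counted from 1 at the start codon.
Ckm, coding bases 550 to 624: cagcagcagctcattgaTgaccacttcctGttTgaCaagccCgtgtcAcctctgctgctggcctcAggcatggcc
Ckb, coding bases 550 to 624: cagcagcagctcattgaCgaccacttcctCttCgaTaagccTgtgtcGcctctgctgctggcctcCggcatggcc
Ckmt1, coding bases 265 to 339: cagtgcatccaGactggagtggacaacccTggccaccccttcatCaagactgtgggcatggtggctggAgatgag
Ckmt2, coding bases 265 to 339: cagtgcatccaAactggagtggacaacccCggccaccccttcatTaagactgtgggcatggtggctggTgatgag
Even here Ckm and Ckb differed at 7 of 75 bases and Ckmt1 and Ckmt2 at 4. Over the whole coding sequence Ckm and Ckb were 75.9% identical, with no identical run longer than 20 bases. Ckmt1 and Ckmt2 were 71.4% identical, with a longest identical run of 39 bases. Closer copies lie among processed pseudogenes. Gm12892 was 96.8% identical to Ckb over 78.1% of its transcript and held 0 to 4 counts per library, and Ak3l2-ps was 99.6% identical to Ak4 over 16.1% of its transcript and held 13 to 43 counts. Reads of these pairs may be counted for each other. Antisense genes overlap 16.4% of the Ckm transcript (1 to 7 counts per library) and 5.65% of the Ckmt2 transcript (3 to 17 counts), and without a stated strand setting these reads cannot be told apart from those of Ckm and Ckmt2.

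Library totals lay between 12498215 and 16618365 counts. Hmgb2 itself was 4.33-fold higher in the libraries labelled HMGB2, with 175 to 196 CPM (counts scaled to a common library total) against 36.3 to 46.8 CPM with the vector; virus and chromosomal transcripts are not separated. Defining cardiomyocyte genes were abundant, and the summed level of 8 of them was 16229 to 17480 CPM with the vector and 26706 to 27055 CPM with HMGB2. Of these 8 markers 6 rose (edgeR, adjusted p under 0.05), Pln most (log2 fold change 1.44), and none was at 0. The summed level of 6 fibroblast markers was 3605 to 3675 CPM with the vector and 3230 to 3335 CPM with HMGB2, and that of 6 endothelial markers 2440 to 2528 and 2121 to 2214 CPM. Of 6 markers of skeletal muscle, which also uses Ckm and Ak1, Tnnt3 rose (14.5 to 18.4 CPM with the vector and 26.9 to 29.3 CPM with HMGB2) and Acta1 fell (36.7 to 40.5 and 20.3 to 23.9 CPM). Another 3 did not pass, and Myod1, at 0 in 5 libraries, was below the filter. Their part in the results was not tested. In bulk RNA, more cells of a type and more RNA per cell cannot be told apart. Libraries vector 1 and HMGB2 3 stood apart from the others of their groups: in pairs that held 1 of them, the chi-square over genes divided by its degrees of freedom was 14.4 to 20.2, against 2.01 and 2.75 for the remaining pairs. Results that change without these 2 libraries are given with and without them.

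Transcripts of all 4 creatine kinases and of both adenylate kinases were higher with HMGB2, while those of creatine uptake and synthesis did not pass the test. Of the 9 genes 6 rose, 0 fell and 3 did not pass (edgeR quasi-likelihood test, Benjamini-Hochberg adjusted p under 0.05 over all genes), where 14.4% of all tested genes rose, 10.8% fell and 25.2% did either. At an unadjusted p under 0.05, 7 were higher and 0 lower, but the share of all genes at this threshold was not counted. DESeq2 called 6 higher and 0 lower, against 1898 and 1504 of 17301 genes over all. The median log2 fold change of the 9 genes was 0.48, against -0.0022 over all tested genes. All 3 HMGB2 libraries lay above all 3 vector libraries for 7 of the 9 genes, and this was so for 21.6% of all tested genes, with the reverse for 18.9%. Without vector 1 and HMGB2 3 together, 7 of the 9 rose, but more of all genes were called too. Of 15644 genes tested there, 3265 rose and 2986 fell, against 2224 and 1662 of 15429 with all libraries.

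**Figure D1:**
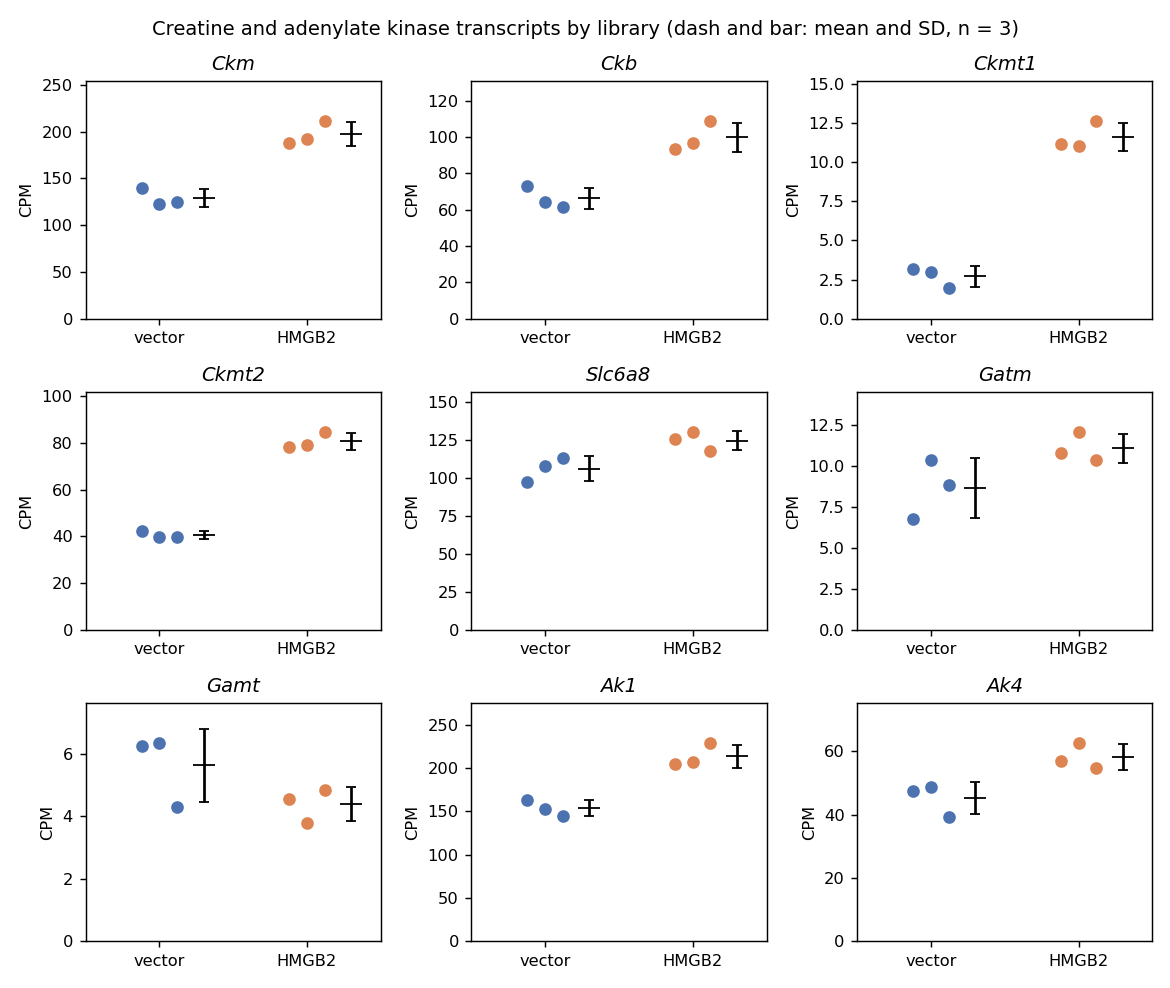
CPM of the 9 genes in each library (points; vector in blue, HMGB2 in orange), each panel with its own linear axis from 0, and the mean and SD of 3 libraries as a dash and bar. The groups are separate for all genes except Gatm and Gamt.

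The cytosolic creatine kinases rose by similar amounts. Ckm (ENSMUSG00000030399, GRCm38 chromosome 7, 19404776 to 19422841), whose product also binds the sarcomeric M-band, had 140, 123 and 124 CPM in vector 1, 2 and 3 and 188, 192 and 212 CPM in HMGB2 1, 2 and 3. The lowest HMGB2 library was thus above the highest vector library. The rise was 1.53-fold, from 129 ± 9.57 to 197 ± 12.7 CPM (SD, n = 3 each; log2 fold change 0.61, SE 0.08, edgeR adjusted p = 0.000619). Ckb (ENSMUSG00000001270, chromosome 12, 111669361 to 111672338), the form that dominates in brain and in early heart development, had 72.9, 64.5 and 61.5 CPM with the vector and 93.5, 96.8 and 109 CPM with HMGB2. These groups did not overlap either, and the rise was 1.51-fold (66.3 ± 5.92 to 99.8 ± 8.18 CPM, log2 fold change 0.59, SE 0.09, edgeR adjusted p = 0.00143). In both genes vector 1 was the highest vector library and HMGB2 3 the highest HMGB2 library. Without these 2 libraries the log2 fold changes were 0.62 for Ckm and 0.60 for Ckb.

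Levels of different genes are compared on the deposited FPKM scale, which divides by gene length. The counts imply that the authors used 2.91 kb for Ckm and 2.90 kb for Ckb, so these 2 genes are divided by nearly the same length. Their main coding transcripts have 2742 and 1472 bases, so the level of the share below depends on the lengths used. Ckm made up 65.7%, 65.5% and 66.8% of the summed FPKM of Ckm and Ckb in the vector libraries and 66.7%, 66.4% and 65.9% in the HMGB2 libraries. The share of the muscle form was therefore 66.0% ± 0.72 with the vector and 66.3% ± 0.40 with HMGB2 (SD, n = 3 each). The difference of 0.34 percentage points was smaller than the SD of the vector group (two-sided exact permutation test, p = 0.5, where 3 against 3 libraries cannot give less than 0.1). It was 0.38 points when counts were divided by the length of the main coding transcript, a scale chosen after the data were seen.

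The mitochondrial creatine kinases rose more than the cytosolic forms on the CPM scale. Ckmt2 (ENSMUSG00000021622, chromosome 13, 91853387 to 91876885), the form of heart and skeletal muscle mitochondria, had 42.4, 39.7 and 39.5 CPM with the vector and 78.0, 79.1 and 84.7 CPM with HMGB2. Each HMGB2 library held close to double the vector level. The rise was 1.99-fold, from 40.5 ± 1.62 to 80.6 ± 3.60 CPM (log2 fold change 0.99, SE 0.07, edgeR adjusted p = 1.89e-05). Ckmt1 (ENSMUSG00000000308, chromosome 2, 121357714 to 121363737), the form of brain and epithelia, was scarce. It had 40, 41 and 27 raw counts in the vector libraries and 186, 160 and 209 in the HMGB2 libraries, or 3.21, 2.99 and 1.93 against 11.2, 11.0 and 12.7 CPM. The groups lay far apart, with a 4.30-fold rise from 2.71 ± 0.68 to 11.6 ± 0.90 CPM (95% interval 3.22 to 5.74, log2 fold change 2.11, SE 0.19, edgeR adjusted p = 5.1e-05). The log2 fold change of Ckmt1 was above that of 99.2% of all tested genes, but on the log2(FPKM + 1) scale, which shrinks changes of low genes, it was 1.46 (limma adjusted p = 0.00034).

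Ckmt2 remained the main mitochondrial form in every library. Ckmt2 made up 95.7%, 95.7% and 97.2% of the summed FPKM of both mitochondrial forms with the vector and 92.1%, 92.3% and 91.8% with HMGB2. The groups did not overlap, and the share of the sarcomeric form was lower with HMGB2 by 4.09 percentage points (96.2% ± 0.84 against 92.1% ± 0.26, SD, n = 3 each). A two-sided exact permutation test gave p = 0.1, the smallest value that 3 against 3 libraries allow. The difference was -6.25 percentage points when counts were divided by the length of the main coding transcript, a scale chosen after the data were seen.

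The summed FPKM of the 4 creatine kinases was 102.9, 91.0 and 90.5 in the vector libraries and 154, 157 and 175 in the HMGB2 libraries. The mean was 1.71 times higher with HMGB2 (94.8 ± 7.05 against 162 ± 11.3). Within this sum the mitochondrial forms took 29.7% ± 0.69 with the vector and 36.6% ± 0.52 with HMGB2, with no overlap between groups (28.9% to 30.2% against 36.0% to 37.0%). A two-sided exact permutation test gave p = 0.1, the smallest value that 3 against 3 libraries allow. These levels depend on the lengths used. With counts divided by the main coding transcript, Ckmt2 took 22.5% with the vector and 26.9% with HMGB2, and Ckmt1 1.47% and 3.80%. That scale was chosen after the data were seen. Ckm went from 46.4% ± 0.61 to 42.1% ± 0.095 of the sum, Ckb from 23.9% ± 0.60 to 21.4% ± 0.43, Ckmt2 from 28.6% ± 0.78 to 33.7% ± 0.56 and Ckmt1 from 1.13% ± 0.24 to 2.89% ± 0.068. The ordering of Ckm, Ckmt2 and Ckb by FPKM was the same in all 6 libraries. It depends on the lengths: with the main coding transcript (2742 bases for Ckm and 1472 for Ckb) the share of Ckm was 38.9% with the vector and that of Ckb 37.1%.

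**Figure D2:**
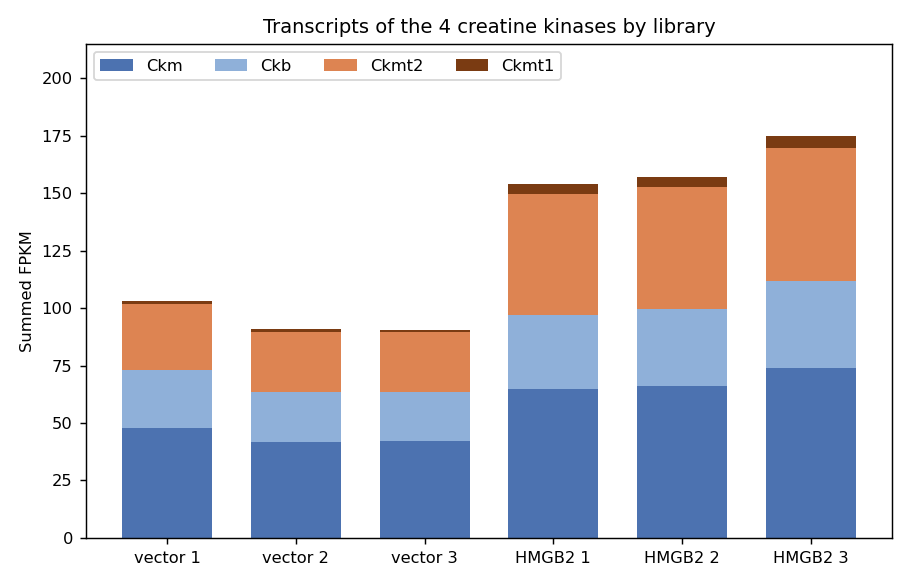
Summed FPKM of the 4 creatine kinase genes in each library, stacked by gene on a linear axis from 0. The HMGB2 libraries reach 154 to 175 and the vector libraries 90.5 to 102.9, and the segments of Ckmt2 and Ckmt1 take a larger part of the HMGB2 bars.

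The gene for the transporter that brings creatine into the cell changed less than the kinases. Slc6a8 (ENSMUSG00000019558, chromosome X, 73673150 to 73682502) had 97.2, 108 and 113 CPM with the vector and 125, 130 and 118 CPM with HMGB2. All HMGB2 libraries were above all vector libraries, yet by little. The fold was 1.17 (95% interval 1.03 to 1.33, log2 fold change 0.23, SE 0.08), and it missed the threshold (edgeR adjusted p = 0.0652). Over the alternatives the adjusted p ranged from 0.00144, without vector 1 and HMGB2 3 together, to 0.219, and with library totals in place of scaled ones it was 0.0458. Unlike the creatine kinases, Slc6a8 was lower in vector 1 and HMGB2 3 than in the other libraries of the same group, by 0.19 and 0.11 on the log2 scale.

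Genes of creatine synthesis were low, and neither passed the test. Gatm (ENSMUSG00000027199, chromosome 2, 122594467 to 122611303), which makes guanidinoacetate, had 6.74, 10.4 and 8.80 CPM with the vector and 10.8, 12.1 and 10.4 CPM with HMGB2. The vector 2 library overlapped the HMGB2 range, and the fold of 1.28 had a 95% interval of 0.99 to 1.64 (edgeR adjusted p = 0.148). Gamt (ENSMUSG00000020150, chromosome 10, 80258151 to 80261012), which methylates guanidinoacetate to creatine, had 6.25, 6.35 and 4.29 CPM with the vector and 4.57, 3.79 and 4.85 CPM with HMGB2. It was the one member with a negative log2 fold change (-0.35, SE 0.20, edgeR adjusted p = 0.236), and its groups overlapped through vector 3. With 55 to 87 Gamt counts per library, the 95% interval of the fold ran from 0.58 to 1.07, so a fall of that size or no change could not be distinguished at this depth.

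Both adenylate kinases of the list rose, Ak1 more firmly than Ak4. Ak1 (ENSMUSG00000026817, chromosome 2, 32621758 to 32635058), the main cytosolic form of muscle, had 163, 153 and 145 CPM with the vector and 205, 207 and 229 CPM with HMGB2. The groups were well apart, and the rise was 1.39-fold (154 ± 9.40 to 214 ± 13.5 CPM, log2 fold change 0.48, SE 0.08, edgeR adjusted p = 0.00209). Ak4 (ENSMUSG00000028527, chromosome 4, 101419277 to 101466995) had 47.4, 48.6 and 39.4 CPM with the vector and 56.9, 62.7 and 54.9 CPM with HMGB2. Its groups did not overlap but lay closer together, with a 1.29-fold rise (log2 fold change 0.37, SE 0.10, edgeR adjusted p = 0.0249). The threshold was missed when vector 3 was left out (edgeR adjusted p = 0.0847), as it was without HMGB2 1 (0.0656) or HMGB2 2 (0.104). Unfiltered limma on log2(FPKM + 1) missed it too (adjusted p = 0.0912).

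Per length, Ak1 was the most abundant of the 9 genes and among the upper transcripts of the culture. Its level was 58.8 ± 3.85 FPKM with the vector and 82.8 ± 5.90 FPKM with HMGB2, and its mean over all libraries was above that of 96.0% of the tested genes. With the vector it was followed by Ckm (44.0 FPKM), Ckmt2 (27.0), Ckb (22.7), Slc6a8 (20.2), Ak4 (9.63), Gamt (3.87), Gatm (2.85) and Ckmt1 (1.08). Ckb and Slc6a8 overlapped between libraries (21.0 to 25.1 against 18.6 to 21.6 FPKM), as did Gamt and Gatm (2.95 to 4.33 against 2.24 to 3.40 FPKM), so these neighbours are not ordered on this scale. The order also depends on the lengths used. With counts divided by the main coding transcript, Ckb made up 37.1% and Ckmt2 22.5% of the 4 creatine kinases with the vector. With HMGB2 the first 6 places were held by the same genes, and Ckmt1 (4.68 FPKM) stood above Gatm (3.70) and Gamt (3.07).

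Of the other 7 adenylate kinase genes 5 were tested, and 1 rose, 1 fell and 3 did not pass, counts near the 14.4% and 10.8% of all tested genes that rose and fell. Ak3, which uses GTP in the mitochondrial matrix, rose 1.25-fold, from 104 to 108 CPM in the vector libraries to 130 to 134 CPM in the HMGB2 libraries (edgeR adjusted p = 0.00617). On the other strand its transcript overlaps exons of Cdc37l1 over 4.24% and of an antisense gene over 10.1%. Ak6, a nuclear form, had a log2 fold change of -0.35 and fell (edgeR adjusted p = 0.0333), a call lost without vector 2 (0.0684), vector 3 (0.0711), HMGB2 1 (0.138) or HMGB2 2 (0.132). The call was also lost with library totals in place of scaled ones (edgeR, 0.0511), the replicate block (edgeR, 0.0917) and every limma fit (0.0647 to 0.16). Ak6 shares 56.5% of its exon bases, and 91.6% of the transcript taken as its main one, with Taf9 on the same strand, so its counts are uncertain. Of the summed FPKM of all 9 adenylate kinases, Ak1 made up 36.6% ± 0.82 with the vector and 43.0% ± 0.64 with HMGB2, and Ak4 5.99% ± 0.61 and 6.55% ± 0.68 (SD, n = 3 each).

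Among 15 genes of AMP deamination, the purine nucleotide cycle and nucleotide phosphorylation, the paired isoforms of adenylosuccinate synthase went opposite ways. Adssl1, the muscle form, had 32.3, 29.3 and 25.9 CPM with the vector and 50.3, 51.9 and 53.8 CPM with HMGB2, a rise of 1.78-fold (edgeR adjusted p = 0.00023). Adss, the form of most tissues, had 98.1, 93.3 and 88.8 CPM with the vector and 64.6, 66.8 and 72.7 CPM with HMGB2, a fall (log2 fold change -0.46, edgeR adjusted p = 0.00235). Groups were apart for both genes, and both calls held when any 1 library was left out. In all, 2 of 13 tested genes rose and 3 fell, with a median of -0.03, against 14.4% and 10.8% of all tested genes. Ampd3, an AMP deaminase whose transcript overlaps Rnf141 on the other strand over 5.84%, rose 1.21-fold, a call lost without vector 2, HMGB2 1 or HMGB2 2 (edgeR adjusted p = 0.0736, 0.0895 and 0.0692). The Ampd3 call was also lost with the replicate block (edgeR, 0.104) and with unfiltered limma (0.0598). Adsl, which follows adenylosuccinate synthase in the cycle, fell by 0.34 (lost without HMGB2 1, 0.0518, or HMGB2 2, 0.0555, and with the replicate block, 0.0627). Nme1, a nucleoside diphosphate kinase named after its value was seen, shares 13.1% of its transcript with Gm20390 on the same strand. It fell by 0.52 (lost without vector 2, 0.0575, HMGB2 1, 0.116, or HMGB2 2, 0.108). The Nme1 call was also lost with the replicate block (edgeR, 0.0861) and every limma fit (0.0727 to 0.176). Without HMGB2 1 or without HMGB2 2, 1 gene of this list rose and 1 fell, and without vector 2, 1 rose and 2 fell. Over all tested genes 1567, 1609 and 1593 rose without HMGB2 1, HMGB2 2 and vector 2, and 866, 897 and 973 fell.

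Of the 7 AMPK subunits 2 rose and 0 fell in the edgeR test, with a median log2 fold change of 0.20, where 14.4% of all tested genes rose and 10.8% fell. At an unadjusted p under 0.05, 3 were higher and 1 lower, but the share of all genes at this threshold was not counted. DESeq2 and limma gave 2 and 0, while edgeR with DESeq2 size factors gave 2 and 1. Over all genes DESeq2 gave 1898 and 1504 of 17301, and filtered limma on log2(FPKM + 1) gave 1823 and 1144 of 12904. EdgeR with DESeq2 size factors gave 2157 and 1772 of 15429. Prkaa2, the catalytic alpha subunit that prevails in muscle, had 62.4, 83.2 and 82.3 CPM with the vector and 145, 147 and 122 CPM with HMGB2, 1.81-fold higher (edgeR adjusted p = 0.000863). The nucleotide-binding gamma subunit gene Prkag2 went from 49.9 ± 4.61 to 91.3 ± 0.30 CPM, a rise of 1.83-fold (edgeR adjusted p = 7.29e-05). Prkaa1, the other catalytic subunit, chosen here after its value was seen, had a log2 fold change of -0.21 (edgeR adjusted p = 0.0537). Without vector 1 the list held 1 gene that fell, and without vector 1 and HMGB2 3 together 4 rose and 1 fell. Over all tested genes, 1960 of 15823 fell without vector 1. Without both libraries 3265 of 15644 rose and 2986 fell.

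Among 8 genes for the carriers, porins and M-band proteins that work beside creatine kinase, 2 rose and 0 fell, and all 8 had a positive log2 fold change (median 0.22). Of all tested genes 14.4% rose and 49.8% had a positive value. At an unadjusted p under 0.05, 4 were higher and 0 lower, but the share of all genes at this threshold was not counted. DESeq2 gave 2 and 0, against 1898 and 1504 of 17301 genes over all. Slc25a4, the ADP/ATP carrier of heart and muscle, had 712, 591 and 567 CPM with the vector and 876, 854 and 1025 CPM with HMGB2, 1.47-fold higher (edgeR adjusted p = 0.00455). Slc25a5, the more widespread carrier, chosen here after its value was seen, had a fold of 1.08 (95% interval 0.92 to 1.26). Myom3, a myomesin, rose from 0.48 ± 0.11 to 2.78 ± 0.43 CPM (edgeR adjusted p = 0.00037), a change between very low levels. The count of this list moved with the libraries that stood apart, with 5 genes higher without vector 1 and 7 without vector 1 and HMGB2 3 together. The count over all tested genes moved too, from 2224 of 15429 to 2526 of 15823 and 3265 of 15644 higher. In the list of methyl donor supply and creatine export, 2 of 4 tested genes rose, against 14.4% of all tested genes, and 0 fell (0 also with DESeq2, limma or an unadjusted p under 0.05), with a median of 0.16. The level of Slc16a12, a creatine exporter of the plasma membrane, was 10.5 ± 0.50 CPM with the vector and 17.8 ± 1.85 CPM with HMGB2, 1.70-fold higher (edgeR adjusted p = 0.00123). Mat2b, a subunit of methionine adenosyltransferase, rose 1.24-fold, and its call was lost without vector 2, vector 3, HMGB2 1, HMGB2 2 or HMGB2 3 (edgeR adjusted p = 0.136, 0.124, 0.0829, 0.0646 and 0.0838). The Mat2b call was also lost with the replicate block (edgeR, 0.0991) and every limma fit (0.0508 to 0.13).

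**Figure D3:**
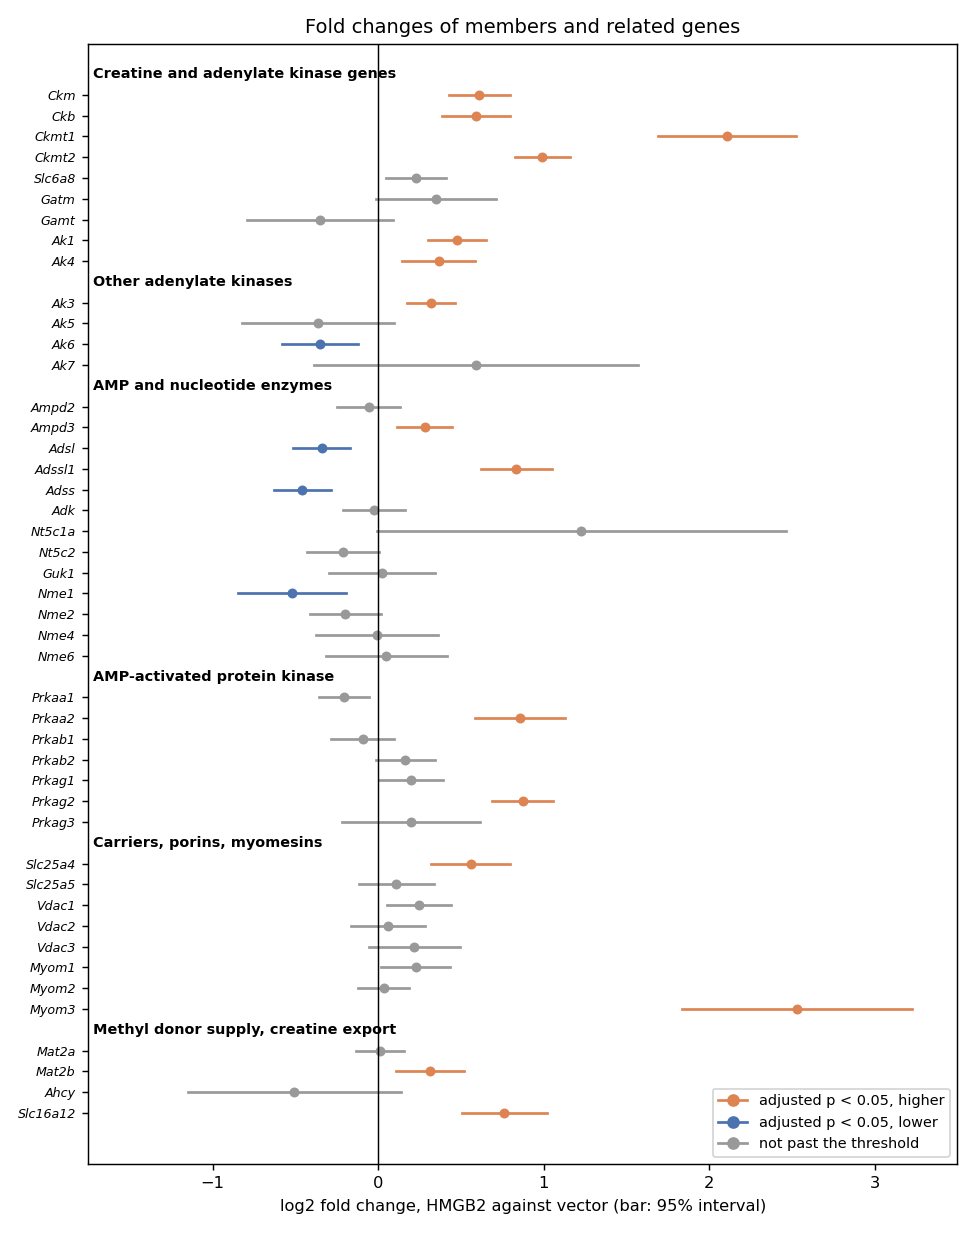
Log2 fold change of HMGB2 against vector with its 95% interval (edgeR, 3 libraries a group) for the 9 genes and the tested members of 5 related lists that are reported here; orange and blue mark genes past the threshold that were higher and lower. The creatine kinases lie between 0.59 and 2.11, and the related lists hold values on both sides of 0.

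The rise of the creatine kinases went with a rise of cardiomyocyte markers, whose summed CPM was 1.60 times higher with HMGB2. The sums did not overlap between groups, and their part in the results was not tested. Divided by that sum in the same library, Ckm had a ratio of 0.96 between the group means and Ckb of 0.94, and for both genes the groups overlapped. On this scale, chosen after the data were seen and given as a description, Ckmt1 was 2.69 times and Ckmt2 1.24 times higher with HMGB2, with the groups apart. Leaving each marker out of the sum in turn, also chosen after the data were seen, showed that the ratio of Ckmt2 depends on Nppa and Actc1. Without Actc1 the ratio of Ckmt2 was 1.39 with the groups apart. Nppa, which had a fold of 1.09 and did not pass, made up 40.4% of the marker sum with the vector and 27.6% with HMGB2. Without Nppa the sum was 1.95 times higher with HMGB2, Ckmt2 had a ratio of 1.02 with the groups overlapping, and Ckmt1 had 2.201 with the groups apart. Ckm (0.79) and Ckb (0.77) were then lower with the groups apart. With all 8 markers, Ak1 (0.87), Ak4 (0.81), Slc6a8 (0.73) and Gamt (0.49) were lower with the groups apart, and Gatm (0.80) was lower with overlap. Without Actc1 in the sum, the ratios were 0.97 for Ak1 and 0.90 for Ak4, and the groups of both overlapped, while Ckm and Ckb had ratios of 1.07 and 1.05.

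**Figure D4:**
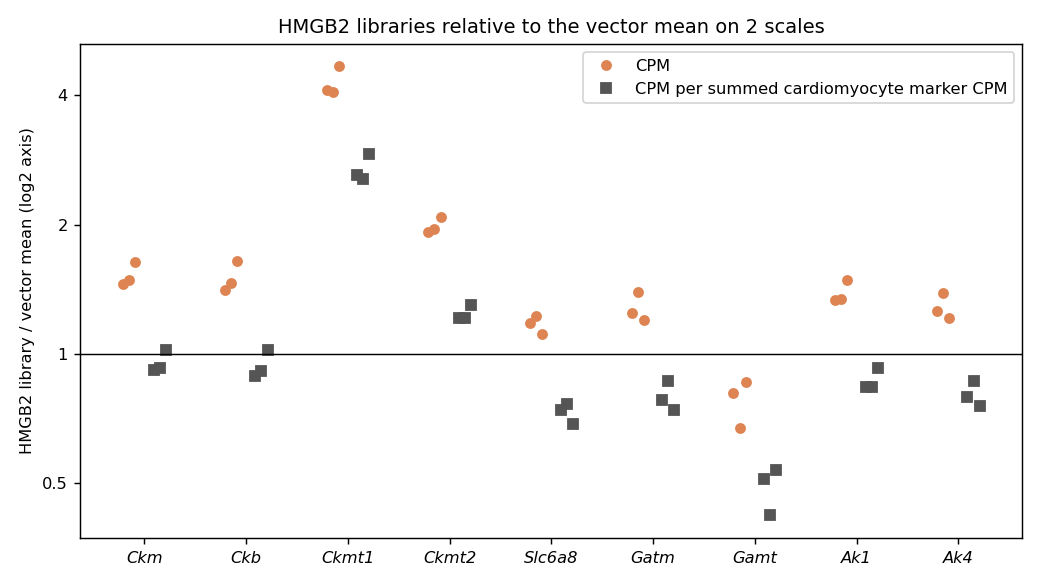
Each HMGB2 library relative to the mean of the vector libraries (log2 axis) for the 9 genes, as CPM (circles) and as CPM divided by the summed CPM of 8 cardiomyocyte markers in the same library (squares). Ckmt1 lies above 1 on both scales; Ckmt2 does too with all 8 markers, but its ratio is 1.02 when Nppa is left out of the sum.

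Since the 4 creatine kinases moved together, the sequence before their start sites is shown. Each window runs from 250 bases before the RefSeq start (GRCm38.p6) to the last base before any annotated exon, in the direction of the gene. The Ckm window lies inside the gene span given above, because that span begins before the main coding transcript (19411025 to 19422841). The window ends 1 base before that transcript. Capitals mark matches, on either strand, to 5 motifs: the core promoter box read by the general transcription machinery, searched as TATAAA; the E-box of myogenic factors, searched as CAGCTG; the element bound by TEAD factors, searched as CATTCC; the site of oestrogen-related receptors, searched as AAGGTCA; and the box of Sp1-type factors, searched as GGGCGG. None of the matches overlap one another.
Ckm, chr7:19410844-19411024, plus strand: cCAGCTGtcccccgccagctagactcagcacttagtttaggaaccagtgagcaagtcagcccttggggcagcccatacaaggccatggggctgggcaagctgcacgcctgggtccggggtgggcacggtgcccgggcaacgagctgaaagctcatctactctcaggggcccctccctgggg
Ckb, chr12:111672339-111672588, minus strand: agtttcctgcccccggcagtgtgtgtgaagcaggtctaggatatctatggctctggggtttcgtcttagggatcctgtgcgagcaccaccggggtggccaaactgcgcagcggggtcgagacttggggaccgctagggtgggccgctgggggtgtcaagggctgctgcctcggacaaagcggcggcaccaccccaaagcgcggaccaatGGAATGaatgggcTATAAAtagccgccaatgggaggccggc
Ckmt1, chr2:121357526-121357713, plus strand: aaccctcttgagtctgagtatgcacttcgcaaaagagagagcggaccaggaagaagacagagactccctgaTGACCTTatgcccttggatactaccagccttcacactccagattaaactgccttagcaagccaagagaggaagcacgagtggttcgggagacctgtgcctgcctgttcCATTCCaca
Ckmt2, chr13:91876886-91877135, minus strand: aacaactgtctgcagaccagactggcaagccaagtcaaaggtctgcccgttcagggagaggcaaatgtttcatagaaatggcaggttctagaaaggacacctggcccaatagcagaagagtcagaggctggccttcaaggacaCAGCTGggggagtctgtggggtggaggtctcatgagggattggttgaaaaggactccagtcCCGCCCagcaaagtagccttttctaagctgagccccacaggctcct
No motif of the 5 was found in all 4 windows. The windows of Ckm and Ckmt1 leave out the 69 and 62 bases nearest the RefSeq start, where annotated exons lie. TATAAA of Ckb began 28 bases before its start. Matches at that distance were not searched for Ckm and Ckmt1, so their absence there is not shown. CAGCTG was present before Ckm, where 9.30% of promoters hold it over the same 181 bases, and before Ckmt2, where 13.1% do over 250 bases. CATTCC was present before Ckb (12.6% of promoters) and Ckmt1 (10.02% over 188 bases), TATAAA before Ckb (12.3%), AAGGTCA before Ckmt1 (3.18%) and GGGCGG before Ckmt2 (33.0%). These are matches of letters and not measured binding.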

How the data were processed

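Per the labels' protocols, TRIzol total RNA was turned into libraries by a VAHTS Universal V5 kit. The submitters' processing notes list StringTie 1.3.3b, HTSeq 0.6.1, HISAT2 2.2.1, FastQC 0.10.1 and the mm10 build, without roles. The authors deposited raw counts per Ensembl gene and, in a second table, FPKM values of the same genes. Columns were matched to samples by group abbreviation and replicate number.

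Counts were tested with edgeR 4.0.16 (R 4.3.3): filterByExpr (minimum count 10, minimum total 15), TMM scaling, a robust quasi-likelihood F-test with group as the only term, and Benjamini-Hochberg adjustment over 15429 genes. The SE was obtained as |log2 fold change| divided by √F. CPM uses TMM-scaled totals. Shares use FPKM. Alternatives used DESeq2 1.42.0, limma 3.58.1 on log2(FPKM + 1) and log2(FPKM + 0.1), other scalings, no filter, a replicate block and left-out libraries. Gene positions are from GENCODE M21 (GRCm38), because the tables' positions differ from it. Promoters of 4 genes were matched by symbol in RefSeq. Copies were searched with BLAST 2.17.0.

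The 9 genes and the lists were chosen with earlier results of these data known. Named are all 9 genes and, for each related list, at most 4 called genes, taken by lowest p (where fewer than 2 were called, at most 2, taken by highest mean level); Hmgb2 checks the labels. Nme1, Prkaa1 and Slc25a5 fall outside this rule and were chosen after their values were seen. A member of the related lists is not reported here. Adssl1 and Adss are the tables' names of the genes listed as Adss1 and Adss2. Marker lists not described above had summed levels of 1239 to 1340 CPM with the vector and 1215 to 1328 CPM with HMGB2 (smooth muscle and pericyte), 88.8 to 121 and 69.7 to 81.7 (macrophage), 149 to 170 and 125 to 129 (epicardial), 9.86 to 11.8 and 8.79 to 14.2 (Schwann and glial), 55.3 to 60.7 and 52.6 to 56.4 (skeletal muscle), and 0.16 to 1.10 and 0.36 to 0.76 (erythroid).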

Additional observations from a re-analysis of the deposited data

How the results depend on the processing

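Over 15 alternatives the number of the 9 genes that rose was 5 to 7 and the number that fell 0. Ckm, Ckb, Ckmt1, Ckmt2 and Ak1 kept their calls in each of them, and Gatm and Gamt passed in none. Among the 37 tested related genes, 9 rose and 4 fell. The number that rose was 16 without vector 1 and HMGB2 3 together, and 7 to 12 with any 1 library left out. The number that fell was 2 with limma on FPKM under each of its settings, and 1 to 5 with any 1 library left out. Over all tested genes 2224 rose and 1662 fell; the number that fell was 866 with HMGB2 1 left out, 2986 without vector 1 and HMGB2 3 together, 1144, 1127 and 671 with limma, and 754 with the replicate block, where 1459 rose. With unfiltered limma 1387 rose. Without vector 1 and HMGB2 3 together 3265 of 15644 genes rose, and 1567 to 2526 rose with any 1 library left out. Of 328 values of named genes under alternatives, 38 lost a call, 2 gained one and 0 changed sign. Prkaa1, Slc25a5 and Hmgb2 were left out of this count. The deviations of libraries with the same replicate number had correlations of -0.40, 0.29 and -0.46, and those of vector 1 and HMGB2 3 had 0.62. The labels state no pairing. These correlations cannot settle it, because the libraries that stood apart weigh on them. With the replicate block 6 of the 9 genes and 6 of the related genes rose, and 1 related gene fell; Ak3 had an adjusted p of 0.0572 with the block (edgeR). The change of the Ckmt2 share was -4.33 to -3.60 percentage points with 1 library left out and -6.36 on raw counts. The Ckm share changed by 0.083 to 0.75 points with 1 library left out. Leaving out 1 library gives 3 against 2, where the exact permutation test cannot go below 0.1. Depth limits the precision for genes with few counts, such as Gamt, Gatm and Myom3. The filtered FPKM fits did not keep Myom3. The cause of these changes was not tested.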
